A study of Homo sapiens with 12 samples.

Results

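The 10 genes of the MYC, MAX and MXD network were followed across 12 RNA libraries of SK-N-SH cells. They are listed by symbol: the 3 MYC family genes MYC, MYCN and MYCL, their shared partner MAX, the 5 repressors MXD1, MXD3, MXD4, MXI1 and MNT, and the MAX-like gene MLX. All 10 were found among the 18739 genes of the deposited tables, and all 10 passed the low-count filter that left 15051 genes for testing.

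MYC family proteins bind DNA as pairs with MAX, mainly at the E-box sequence CACGTG, and activate genes of growth, ribosome production and metabolism. MXD1, MXI1 (also called MXD2), MXD3, MXD4 and MNT compete for MAX and for the same sites, and recruit the SIN3 corepressor and its histone deacetylases. MLX pairs with MLXIP (MondoA) and MLXIPL (ChREBP), which respond to glucose, and with MXD1, MXD4 and MNT, and so links the network to nutrient sensing. In neuroblastoma, amplification of MYCN marks high-risk tumours, while lines without it, SK-N-SH among them, often use MYC instead.

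SK-N-SH is an established human neuroblastoma line known to hold both neuroblast-like and substrate-adherent cells. 3 libraries came from cells given the solvent DMSO, 3 from cells given chaetocin at 50 nM, 3 from cells transfected with siNC and 3 from cells transfected with siSUV39H1. The first 3 of these groups are labelled WT and the last SUV39H1-knockdown, while the design text names the constructs shNC and shSUV39H1. Chaetocin, made by fungi, is widely used to inhibit SUV39H1, a methyltransferase of lysine 9 on histone H3. How long each treatment lasted is not given in the sources used here. In the design text the libraries are called biological triplicates, but nothing ties them to separate culture days, so p-values measure the spread between these libraries.

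Library totals lay between 18004632 and 19976995 expected counts, and 79.6% of the variance lay on the component that separated chaetocin from the rest. SUV39H1 itself was at 16.7 to 18.7 CPM (counts relative to the library total, TMM-scaled) with siNC and at 5.48 to 6.07 with siSUV39H1. It was at 19.6 to 24.6 CPM with DMSO and at 7.44 to 7.83 with chaetocin. The summed level of 9 adrenergic neuroblastoma markers was 975 to 1169 TPM (a relative abundance per transcript length) with DMSO and 116 to 117 with chaetocin, with TH listed at 0 in DMSO. It was 501 to 526 TPM with siNC and 649 to 717 with siSUV39H1. The sum of 6 mesenchymal markers was 10365 to 10524 TPM with DMSO and 5280 to 6039 with chaetocin. VIM, the largest part of that sum, fell (−1.26 ± 0.10, edgeR adjusted p = 1.17e-08) with PRRX1 and FN1, whereas FOSL1 (1.60 ± 0.08), YAP1 (1.04 ± 0.09) and CD44 (0.15 ± 0.06) rose (2 to 3 of the 6 over the alternative settings). Markers of blood summed to 0.86 to 1.34 TPM with DMSO and 9.15 to 10.1 with chaetocin, with CD3E at 0 in DMSO. Those of Schwann cells summed to 4.79 to 5.28 and 35.3 to 40.1 TPM, with SOX10 at 0 in DMSO. Endothelial markers summed to 0.29 to 0.34 and 5.18 to 5.85 TPM, with CDH5 at 0 in DMSO, and epithelial markers to 123 to 135 and 175 to 182 TPM. The epithelial sum was 140 to 144 TPM with siNC and 188 to 195 with siSUV39H1. In bulk RNA, fewer cells of a type and less RNA per cell cannot be told apart, and the part of these marker shifts in the results below was not tested.

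The E-box is shown first because it is the site through which all these proteins meet. The letters CACGTG, which read the same on both strands, were searched in RefSeq promoters of GRCh38.p14, from 250 bases before to 50 bases after each gene start. 12 promoter entries were matched for 9 of the 10 members, all but MYC, and 3 members held the motif. The capitals below mark it in a window of flanking bases on the strand of the gene.
MXD4: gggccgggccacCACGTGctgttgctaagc
MNT: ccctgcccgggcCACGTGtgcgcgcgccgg
MLX: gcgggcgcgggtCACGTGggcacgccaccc
The MXD4 window is chr4:2262330-2262359 on the minus strand, the MNT window chr17:2401236-2401265 on the minus strand and the MLX window chr17:42567038-42567067 on the plus strand. The motif begins at position -238 from the start of MXD4, -193 from that of MNT and -50 from that of MLX. The same letters were found in 7.26% of 35116 promoters, and in at least 1 promoter of 12.1% of the 12164 tested genes with an entry. A match describes the letters only, and binding was not measured.

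The 3 MYC family transcripts were all far lower with chaetocin, whereas with siSUV39H1 MYC was lower and both MYCN and MYCL were higher than with siNC. MYC (Entrez 4609, chromosome 8, 127735434 to 127742951, GRCh38.p14), the general growth regulator of the family, was at 36, 29.7 and 30.1 CPM with DMSO and at 4.18, 4.82 and 5.74 CPM with chaetocin. It was at 24.0, 24.6 and 24.7 CPM with siNC and at 19.4, 17.7 and 17.3 CPM with siSUV39H1. The 4 groups did not overlap, and their order was DMSO, siNC, siSUV39H1, chaetocin. The log2 change was −2.70 ± 0.12 (SE, n = 3 per group) with chaetocin (edgeR quasi-likelihood test, Benjamini-Hochberg adjusted p = 1.24e-11) and −0.43 ± 0.11 with siSUV39H1 (adjusted p = 0.00598). In the second comparison the call was lost when limma was run on the TPM values (adjusted p = 0.0597 and 0.0676 with the pseudocounts 1 and 0.1).

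MYCN (Entrez 4613, chromosome 2, 15940550 to 15947004), the family member of neural crest and neuroblastoma, was counted 73, 62 and 48 times with DMSO and 3, 2 and 0 times with chaetocin. It was counted 18, 27 and 15 times with siNC and 41, 37 and 33 times with siSUV39H1. The groups of both comparisons were separate, with chaetocin near the floor of detection. Over the summed counts, 183 against 5, MYCN was 37.1-fold lower with chaetocin (exact 95% interval 15.6 to 116, counting error only), with a fitted log2 change of −5.11 ± 0.44 (edgeR, adjusted p = 3.24e-08). The size of the fitted value depends on the few counts left and moved to −1.80 on log2(TPM + 1). With siSUV39H1 the sums were 111 against 60 with siNC, a ratio of 1.81 (1.31 to 2.52), and the log2 change was 0.85 ± 0.30 (edgeR, adjusted p = 0.0379). That call rests on few counts and was lost with DESeq2 (adjusted p = 0.0506), on leaving out siNC replicate 1 (0.108), siNC replicate 3 (0.131), or any of the siSUV39H1 replicates 1 (0.0953), 2 (0.0695) and 3 (0.0563).

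MYCL (Entrez 4610, chromosome 1, 39895428 to 39901917), first known from lung cancer, was counted 52, 53 and 51 times with DMSO and 17, 16 and 8 times with chaetocin. It was counted 28, 31 and 26 times with siNC and 45, 48 and 54 times with siSUV39H1. The siNC libraries lay below both DMSO and siSUV39H1, and the last pair overlapped. MYCL was 3.86-fold lower with chaetocin over summed counts (2.72 to 5.58), with a log2 change of −1.94 ± 0.23 (edgeR, adjusted p = 1.52e-06). With siSUV39H1 its log2 change against siNC was 0.76 ± 0.21 (edgeR, adjusted p = 0.011), a count ratio of 1.69 (1.29 to 2.24).

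**Figure D1:**
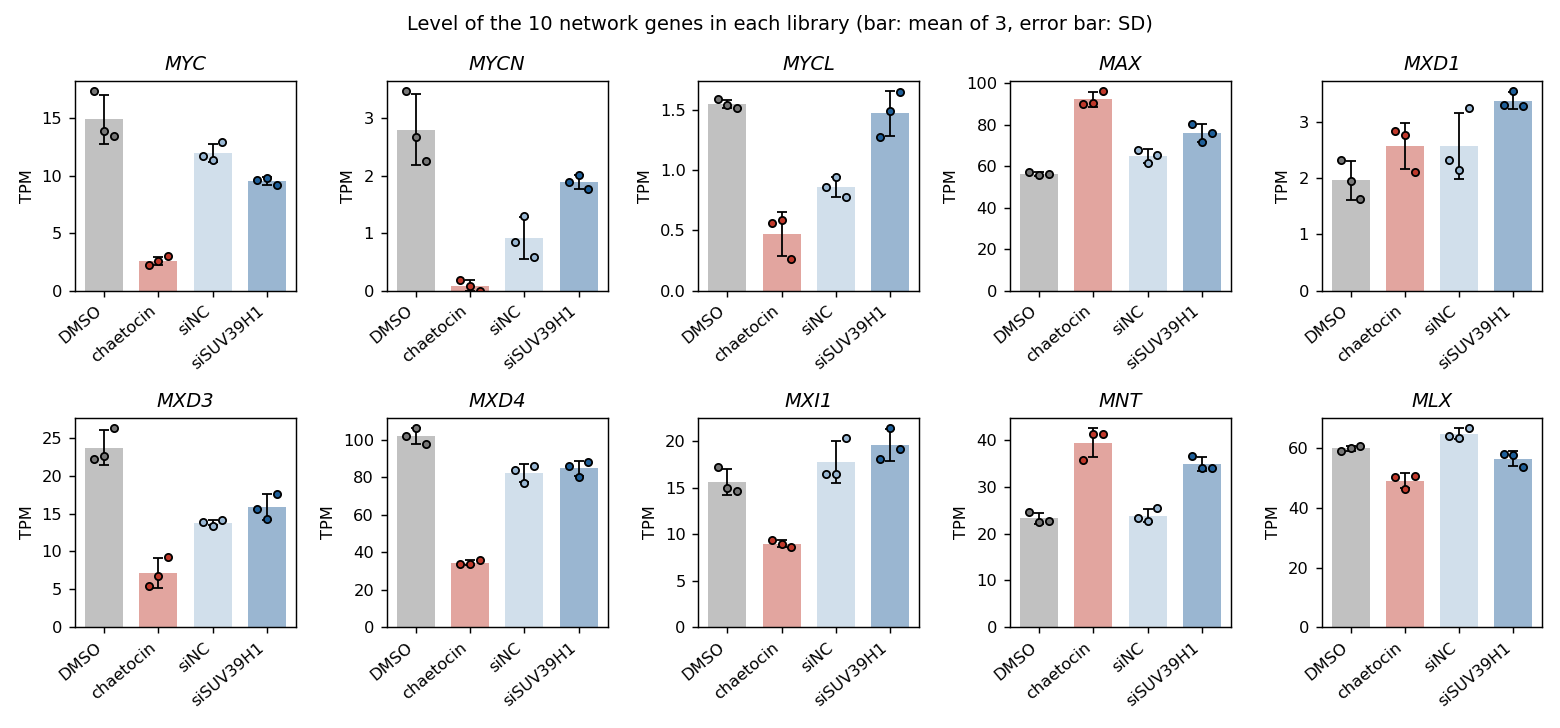
TPM of each network gene (y axes from 0, differing between panels) in the 12 libraries of 4 groups; points are libraries, bars the mean of 3 and error bars the SD. The MYC panel falls from 13.5 to 17.4 TPM with DMSO to 2.21 to 2.97 with chaetocin, while the MAX and MNT panels are highest with chaetocin.

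MAX moved the other way from its MYC family partners with chaetocin. MAX (Entrez 4149, chromosome 14, 65006101 to 65102695), the obligate partner of both the activators and the repressors, was at 58.6, 58.5 and 62.1 CPM with DMSO and at 85.9, 86.7 and 94.5 CPM with chaetocin. Every chaetocin library lay above every DMSO library, and the log2 change was 0.57 ± 0.08 (edgeR, adjusted p = 4.96e-06). It was at 70.9, 68.6 and 63.0 CPM with siNC and at 79.1, 65.1 and 71.0 CPM with siSUV39H1, groups that overlapped. That difference was 0.09 ± 0.08 and was not called on counts (edgeR, adjusted p = 0.407). On the TPM scale it was called by limma, with adjusted p-values of 0.00609 and 0.00666 and a log2 change of up to 0.22.

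The 5 repressors split with chaetocin: MXD3, MXD4 and MXI1 fell, MNT rose and MXD1 was not called. MXD4 (Entrez 10608, chromosome 4, 2247432 to 2262109), a repressor linked to differentiating cells and the most abundant member by TPM with DMSO, was at 215, 231 and 222 CPM with DMSO and at 64.9, 66.2 and 72.4 CPM with chaetocin. It was at 177, 172 and 169 CPM with siNC and at 178, 149 and 168 CPM with siSUV39H1. Chaetocin libraries lay far below all others, while the siNC and siSUV39H1 libraries overlapped. The log2 change was −1.71 ± 0.07 with chaetocin (edgeR, adjusted p = 5.52e-12) and −0.07 ± 0.07 with siSUV39H1 (adjusted p = 0.495).

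MXD3 (Entrez 83463, chromosome 5, 177305499 to 177312752), known from proliferating cells in S phase, was at 13.2 to 17.4 CPM with DMSO and at 3.82 to 5.53 CPM with chaetocin, with a log2 change of −1.70 ± 0.16 (edgeR, adjusted p = 9.08e-08). It was at 8.06 to 9.64 CPM with siNC and at 7.64 to 10.2 CPM with siSUV39H1, which overlapped (0.05 ± 0.15, adjusted p = 0.823). MXD3 shares 926 exon bases on its own strand with RAB24 and 1158 on the opposite strand with PRELID1 in GENCODE v29, and its expected counts were fractional in all 12 libraries. RAB24 and PRELID1 were lower with chaetocin too, by −1.36 and −0.50 on the log2 scale, so the split of reads among these genes is uncertain.

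MXI1 (Entrez 4601, chromosome 10, 110207605 to 110287365), first found as a MAX interactor, was at 30.2, 27.3 and 27.7 CPM with DMSO and at 15.3, 14.7 and 14.4 CPM with chaetocin. The groups did not overlap, and the log2 change was −0.94 ± 0.09 (edgeR, adjusted p = 6.69e-08). With siNC it was at 29.8 to 34.2 CPM and with siSUV39H1 at 31.0 to 33.5 CPM, overlapping ranges with a log2 difference of 0.02 ± 0.08 (adjusted p = 0.886).

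MNT (Entrez 4335, chromosome 17, 2384073 to 2401060), the repressor found in most cell types irrespective of their growth state, was higher with both treatments. It was at 64.9, 62.3 and 61.4 CPM with DMSO and at 89.5, 102 and 105 CPM with chaetocin. It was at 60.7, 60.4 and 61.5 CPM with siNC and at 90.4, 76.9 and 77.7 CPM with siSUV39H1. The controls lay within a narrow band that no treated library entered. The log2 change was 0.65 ± 0.08 with chaetocin (edgeR, adjusted p = 1.04e-06) and 0.42 ± 0.08 with siSUV39H1 (adjusted p = 0.000506). MNT shares 1065 exon bases with an antisense transcript of GENCODE v29, and whether the counting used strand is not given in the sources used here.

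MXD1 (Entrez 4084, chromosome 2, 69915109 to 69942945), the founding MXD gene and one induced on differentiation in blood cells, had the lowest TPM of the repressors. It was at 5.27 to 7.02 CPM with DMSO, 6.11 to 7.89 with chaetocin, 6.90 to 9.22 with siNC and 8.99 to 9.83 with siSUV39H1. Neighbouring groups in this order all overlapped. Neither main comparison called it, with log2 differences of 0.25 ± 0.15 for chaetocin (edgeR, adjusted p = 0.147) and 0.29 ± 0.14 for siSUV39H1 (adjusted p = 0.141). It was called for chaetocin with library totals as the scaling (0.0368) and for siSUV39H1 without siNC replicate 3 (0.0366).

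MLX (Entrez 6945, chromosome 17, 42567100 to 42573203) was lower with both treatments. It was at 75.2, 79.0 and 83.2 CPM with DMSO and at 58.6, 54.7 and 62.5 CPM with chaetocin. It was at 81.4, 86.2 and 79.6 CPM with siNC and at 72.6, 64.8 and 61.8 CPM with siSUV39H1. Treated and control libraries were separate in both pairs. The log2 change was −0.43 ± 0.07 with chaetocin (edgeR, adjusted p = 6.99e-05) and −0.31 ± 0.07 with siSUV39H1 (adjusted p = 0.00453). MLX shares 770 exon bases with PSMC3IP on the opposite strand, which was lower with chaetocin (−1.40 ± 0.14) and higher with siSUV39H1 (0.63 ± 0.13). The expected counts of MLX, like those of MNT, were fractional in all 12 libraries, so how reads were split is uncertain for both.

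In all, 9 of the 10 members were called with chaetocin, 2 higher and 7 lower. Of all genes tested, 79.5% were called in that comparison, 41.1% higher and 38.4% lower, so the count of called members is near that background. Groups without overlap were likewise found for 82.8% of genes. With siSUV39H1 against siNC, 5 members were called, 3 higher and 2 lower, against a background of 33.9% (15.3% higher and 18.6% lower, and 42.3% without overlap). Among all calls of that comparison 45.2% were higher on counts, against 63.1% when limma was run on log2(TPM + 1). With 10 members these shares are a description and not a test of the network. Each change stood at a different place among all genes: that of MYCN with chaetocin was at percentile 0.3, MYC at 3, MXD4 at 7.5, MLX at 32, MAX at 67.3 and MNT at 69.6.

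**Figure D2:**
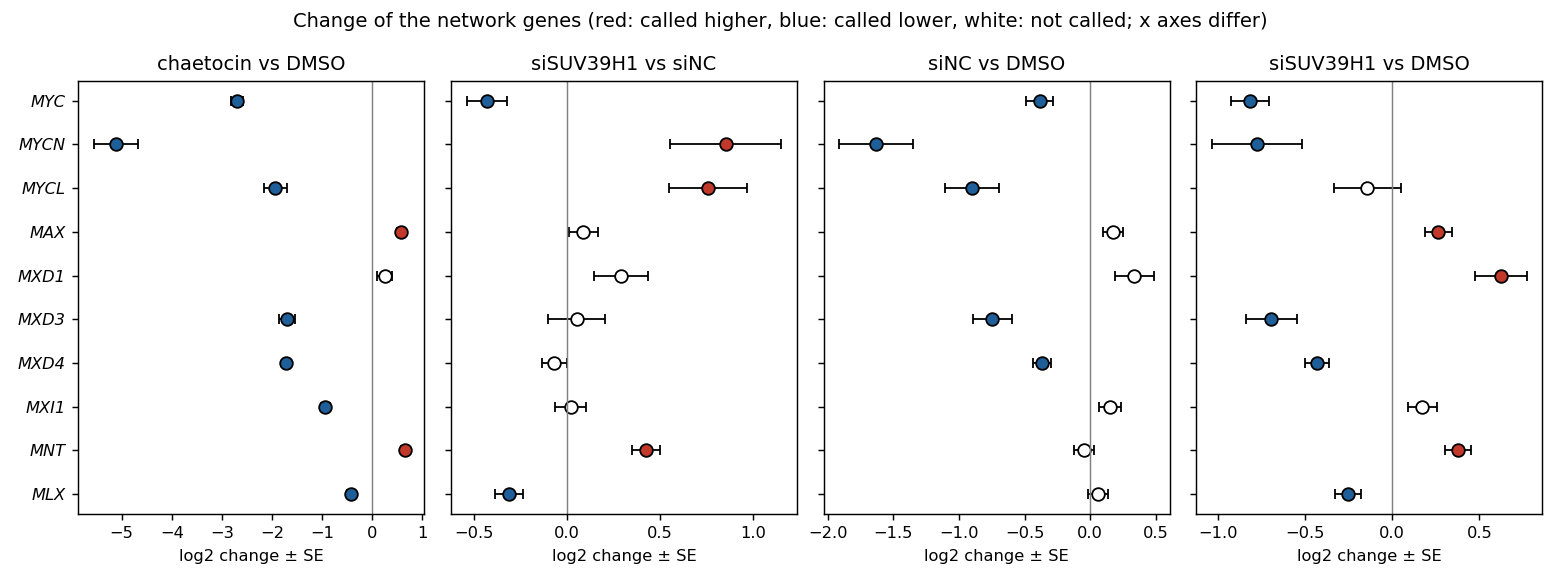
log2 change ± SE of each network gene (x axes differ between panels) in the comparisons of chaetocin with DMSO, siSUV39H1 with siNC, siNC with DMSO and siSUV39H1 with DMSO, with red for called higher, blue for called lower and white for not called. The MYC family lies left of 0 with chaetocin, while MYCN and MYCL lie right of 0 with siSUV39H1 against siNC.

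The 2 main effects were set against each other in the same model, as chaetocin minus DMSO less siSUV39H1 minus siNC. The effects differed for 7 members, 1 more positive and 6 more negative with chaetocin, against 67.6% of all genes tested (33.9% and 33.7%). MYC (−2.27 ± 0.16, edgeR adjusted p = 5.99e-09), MYCN (−5.97 ± 0.55, 1.34e-07) and MYCL (−2.70 ± 0.31, 1.7e-06) were more negative with chaetocin. So were MXD3 (−1.75 ± 0.22, 4.29e-06), MXD4 (−1.65 ± 0.10, 8.48e-10) and MXI1 (−0.96 ± 0.12, 3.45e-06), and MAX was more positive (0.49 ± 0.11, 0.000991). For MXD1 (−0.04 ± 0.21, 0.872) and MLX (−0.12 ± 0.11, 0.316) no difference was detectable. For MNT the difference was 0.23 ± 0.11 (edgeR, adjusted p = 0.0714). It was called with upper-quartile scaling (0.0194), with library totals (0.00444), at a minimum of 1 CPM in 3 libraries (0.0454), without chaetocin replicate 1 (0.0251) and without siSUV39H1 replicate 1 (0.016).

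The control groups themselves differed in the network. With siNC against DMSO, 5 members were called, all lower on TMM-scaled counts, against a background of 35.2% called (17% higher and 18.2% lower). They were MYCN (−1.63 ± 0.28, edgeR adjusted p = 0.000375), MYCL (−0.90 ± 0.21, 0.00322), MXD3 (−0.75 ± 0.15, 0.00118), MXD4 (−0.37 ± 0.07, 0.000735) and MYC (−0.39 ± 0.10 and 0.00987). MAX (0.18 ± 0.08, 0.0925) was called higher with library totals (0.0167) and on TPM with limma (0.0112 and 0.0121). The MYC call was lost on TPM with limma (0.077 and 0.0906) and without DMSO replicate 1 (0.0602). SUV39H1 was lower as well (−0.30 ± 0.10, 0.0316), a call lost in 8 of 22 alternative settings, among them leaving out DMSO replicate 3 (0.17) or siNC replicate 2 (0.0724) or 3 (0.105). The labels do not separate transfection, solvent and culture between these controls, so those cannot be told apart.

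Set against DMSO in place of siNC, which shares libraries with the comparisons above, siSUV39H1 gave a different picture for MYCN and MYCL. MYCL overlapped the DMSO libraries (−0.14 ± 0.19, edgeR adjusted p = 0.566), and MYCN was lower (−0.78 ± 0.26, 0.0214) where it had been higher against siNC. MYC was lower against both controls (−0.82 ± 0.11 and 1.83e-05 against DMSO), and MNT was higher against both (0.38 ± 0.08, 0.000815). In this comparison 8 members were called, 3 higher and 5 lower, against 48.2% of all genes (22.3% higher and 25.9% lower). Of all its calls 46.3% were higher on counts and 65.1% on log2(TPM + 1). MXD1 was among the higher members (0.62 ± 0.15, 0.00282), and MXD3 (−0.69 ± 0.15, 0.00133) and MXD4 (−0.43 ± 0.07, 0.000114) were among the lower. The MYCN call was lost on log2(TPM + 0.1) (0.229) and without DMSO replicate 1 (0.0984) or 2 (0.0544) or siSUV39H1 replicate 2 (0.0612) or 3 (0.0808). That of MLX (−0.25 ± 0.07, 0.0111) was lost on TPM (0.182 and 0.188) and without DMSO replicate 3 (0.0635) or siSUV39H1 replicate 3 (0.0678), and that of MAX (0.26 ± 0.08, 0.0106) without siSUV39H1 replicate 1 (0.0509).

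Compared per length, the order of the members changed with chaetocin. In DMSO cells MXD4 stood first at 102 ± 4.45 TPM (SD, n = 3), followed by MLX, MAX, MXD3, MNT, MXI1, MYC, MYCN, MXD1 and MYCL, and the ranges of MXD3 and MNT, of MXI1 and MYC and of MYCN and MXD1 overlapped. With chaetocin the order was MAX at 92.3 ± 3.49 TPM, then MLX, MNT, MXD4, MXI1, MXD3, MYC, MXD1, MYCL and MYCN, with overlaps between MNT and MXD4, MXI1 and MXD3, and MYC and MXD1. In siNC and siSUV39H1 cells MXD4 again stood first, and MYCN and MYCL were the lowest of the 10.

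Ratios of TPM within a library do not depend on the scaling between libraries. MAX over MYC was 3.30, 4.01 and 4.17 with DMSO and 40.8, 35.6 and 32.4 with chaetocin. It was 5.80, 5.43 and 5.06 with siNC and 8.36, 7.30 and 8.30 with siSUV39H1. The 4 groups did not overlap, with chaetocin highest and DMSO lowest. The ratio of MNT to MYC followed the same order of groups, with means of 1.57 ± 0.138 for DMSO, 1.99 ± 0.0183 for siNC, 3.67 ± 0.183 for siSUV39H1 and 15.5 ± 1.32 for chaetocin.

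The 5 repressors together summed to 163 to 168 TPM with DMSO and 87.2 to 97.4 with chaetocin, while the MYC family summed to 17.2 to 22.4 and 2.95 to 3.23 TPM. Both sums were thus lower with chaetocin, and the ratio of repressors to MYC family was 8.76 ± 1.09 with DMSO and 29.6 ± 0.525 with chaetocin. It was 10.2 ± 0.437 with siNC and 12.3 ± 0.709 with siSUV39H1, whose libraries lay at 11.5 to 12.9 above siNC at 9.70 to 10.5. MAX over the sum of these 8 partners was 0.303 ± 0.007 with DMSO, 0.422 ± 0.0217 with siNC, 0.443 ± 0.0197 with siSUV39H1 and 0.964 ± 0.0328 with chaetocin, and the siNC and siSUV39H1 ranges overlapped.

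Within the repressors, the share held by MNT was 14.6%, 13.3% and 13.9% with DMSO and 41.1%, 44.1% and 42.5% with chaetocin. It was 16.6%, 17.3% and 17.0% with siNC and 22.9%, 22.1% and 21.0% with siSUV39H1, and no groups overlapped. MXD4 over MNT went from 4.40 ± 0.317 with DMSO to 0.876 ± 0.0604 with chaetocin. The same ratio went from 3.46 ± 0.131 with siNC to 2.43 ± 0.131 with siSUV39H1. With 3 libraries a group no exact permutation test of a ratio can give a p below 0.1, and none was run.

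**Figure D3:**
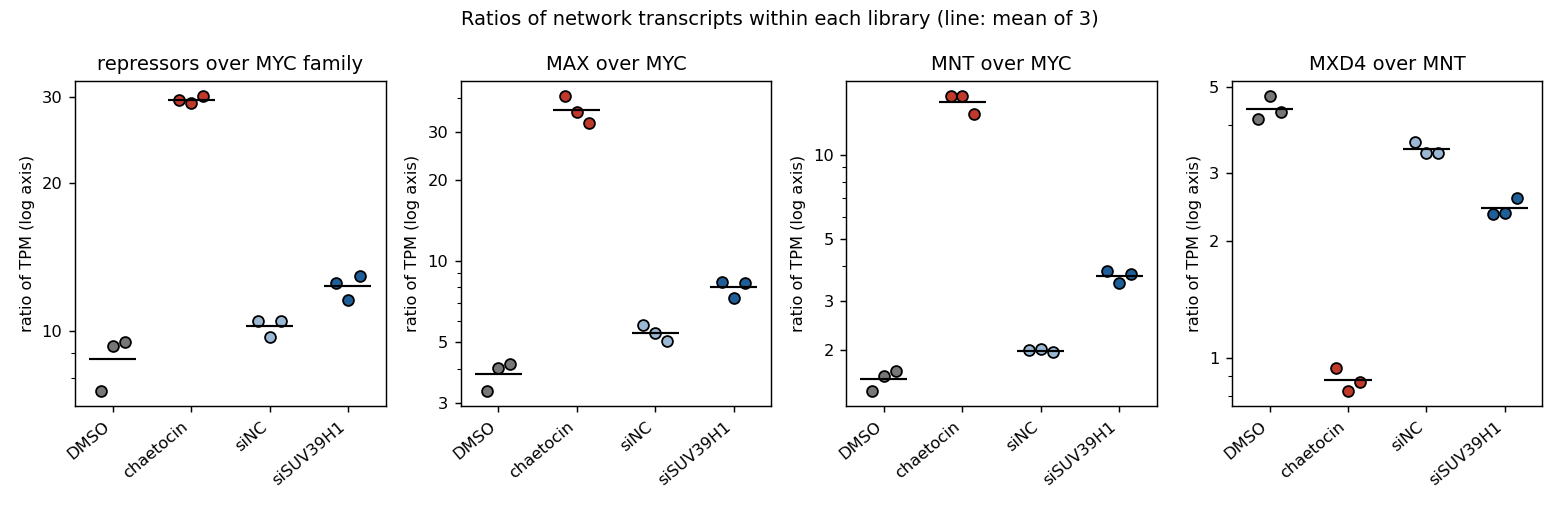
Ratios of TPM within each library (log axes) for repressors over MYC family, MAX over MYC, MNT over MYC and MXD4 over MNT, with points for libraries and lines for the mean of 3. MAX over MYC rises from 3.82 with DMSO to 36.3 with chaetocin, and MXD4 over MNT is below 1 in the chaetocin libraries only.

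Other proteins of the network were tested where expressed. MGA, a large MAX partner that acts with a polycomb-type complex, rose with chaetocin (1.02 ± 0.20, edgeR adjusted p = 0.000205). MLXIP, the MondoA partner of MLX, fell with chaetocin (−0.73 ± 0.07, 1.66e-07) and with siSUV39H1 (−0.29 ± 0.07, 0.00585), a call that was lost in at least 1 alternative setting. Of 8 genes known as targets of MondoA, ChREBP and MLX, 2 rose and 5 fell with chaetocin, with a median log2 change of −0.59 beside 0.04 over all genes. Among all genes 41.1% rose and 38.4% fell. KLF10 rose (2.60 ± 0.06), while TXNIP, an inhibitor of glucose uptake and the best known MondoA target, fell (−1.12 ± 0.07), as did the lipid synthesis genes ACLY (−0.98 ± 0.07) and ACACA (−1.02 ± 0.10). With siSUV39H1 only FASN (−0.32 ± 0.09) and KLF10 (−0.20 ± 0.06) of these 8 were called, both lower, with a list median of −0.16 beside 0.01 over all genes. Over the alternative settings 0 to 3 of the 8 were called lower and 0 to 1 higher. Among all genes 33.9% were called with siSUV39H1. Set against DMSO in place of siNC, FASN was again lower (−0.62 ± 0.09), but KLF10 was higher (0.37 ± 0.06, edgeR adjusted p = 0.000174).

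Among genes known to be activated by MYC, those called lower outnumbered those called higher in both comparisons. Of 35 tested, 19 fell and 7 rose with chaetocin, with a median of −0.29, and 14 fell and 2 rose with siSUV39H1, with a median of −0.17. Of all genes, 38.4% fell and 41.1% rose with chaetocin, and 18.6% fell and 15.3% rose with siSUV39H1. The list was not tested against them, and over the alternative settings its medians reached −0.13 and −0.04. ODC1, the first enzyme of polyamine synthesis, fell with chaetocin (−1.20 ± 0.07, edgeR adjusted p = 1.82e-10), as did CAD of pyrimidine synthesis (−1.48 ± 0.09), LDHA, lactate dehydrogenase A (−1.03 ± 0.07), and the prohibitin PHB2 (−1.07 ± 0.08). With siSUV39H1 LDHA fell as well (−1.42 ± 0.07, 1.61e-09), the ribosome assembly genes GRWD1 (−0.68 ± 0.07) and RRS1 (−0.52 ± 0.07) fell, and the nucleolar gene NOLC1 rose (1.23 ± 0.09, 4.87e-08). Set against DMSO in place of siNC, NOLC1 (0.03 ± 0.08, edgeR adjusted p = 0.77) and RRS1 (−0.08 ± 0.07, 0.329) were not called. LDHA (−1.55 ± 0.07) and GRWD1 (−0.49 ± 0.07) were lower against DMSO too.

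Of 15 genes known to be repressed by MYC or MYCN, 10 fell and 4 rose with chaetocin, with a median of −0.70. NDRG1 (1.11 ± 0.08) and GADD45A (0.63 ± 0.07) were among those that rose. Of all genes, 38.4% fell and 41.1% rose with chaetocin, and 18.6% fell and 15.3% rose with siSUV39H1. The list was not tested against them. GAS1, a growth arrest gene, fell (−5.06 ± 0.12), as did the matrix protein gene THBS1 (−2.51 ± 0.09) and the neurotrophin receptor gene NGFR (−3.48 ± 0.15). All 8 adrenergic markers tested were also lower with chaetocin, with a median of −3.67. With siSUV39H1, 4 of these 8 were higher and 0 lower against siNC (median 0.32), while 7 were lower against DMSO. Whether these markers bear on the list was not tested. With siSUV39H1, GAS1 rose (0.53 ± 0.09), and NGFR (−0.66 ± 0.13), the stress gene GADD45A (−0.32 ± 0.07) and NDRG1 (−0.24 ± 0.08) fell, with 1 of 15 higher and 4 lower in all and a median of −0.06. Over the alternative settings these counts ranged from 1 to 5 higher and from 2 to 5 lower, and the median from −0.07 to 0.05, so its sign depended on the setting. Set against DMSO in place of siNC, GAS1 was not called with siSUV39H1 (0.01 ± 0.09, edgeR adjusted p = 0.926). GADD45A was then higher (0.65 ± 0.07, 2.75e-06), while NGFR (−1.79 ± 0.13) and NDRG1 (−0.55 ± 0.08) were again lower.

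**Figure D4:**
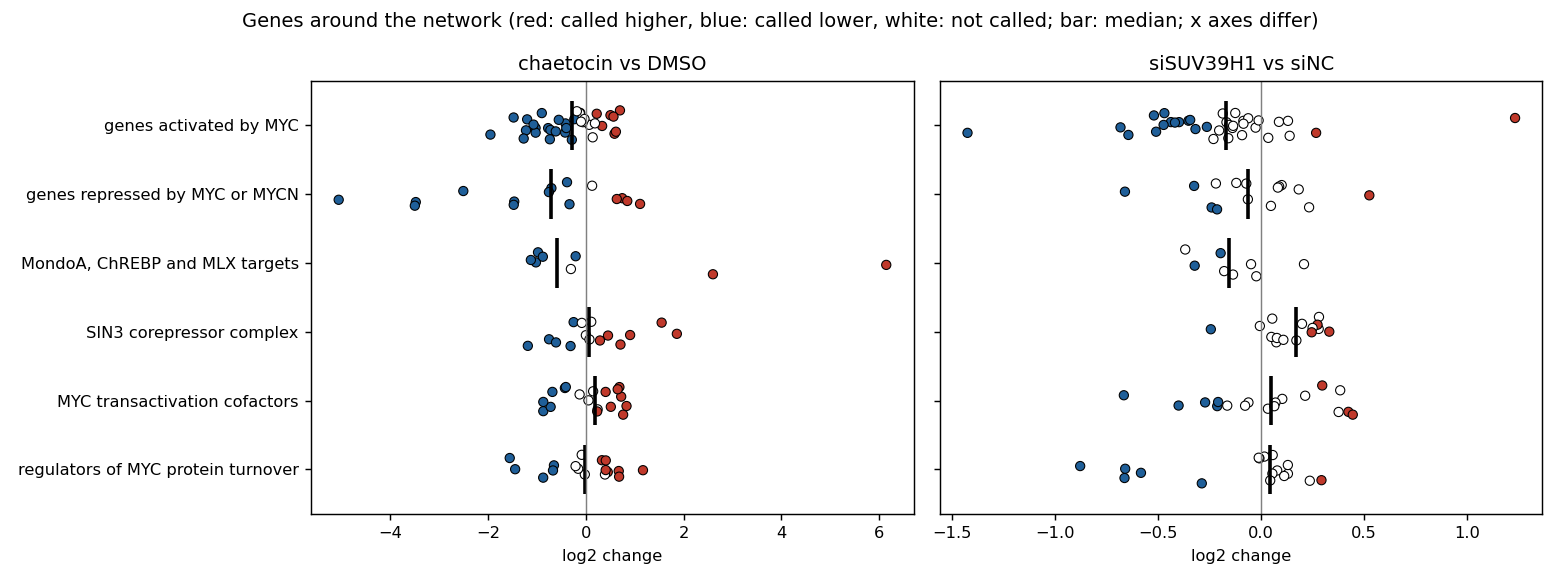
log2 change of each tested gene in 6 lists around the network (x axes differ), for chaetocin against DMSO on the left and siSUV39H1 against siNC on the right, with red for called higher, blue for called lower, white for not called and a bar for the median. The lists of genes activated and repressed by MYC both have medians left of 0 with chaetocin, at −0.29 and −0.70.

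The corepressor that the MXD proteins and MNT recruit moved in both directions. Of 15 SIN3 complex genes, 6 rose and 5 fell with chaetocin (median 0.07), beside 41.1% and 38.4% of all genes. The scaffold gene SIN3A rose (0.91 ± 0.07, edgeR adjusted p = 1.04e-08) with the subunit gene ING1 (1.86 ± 0.08), whereas the deacetylase gene HDAC1 (−0.75 ± 0.06) and SAP30 (−1.19 ± 0.11) fell. With siSUV39H1, SIN3A (0.33 ± 0.07, 0.00211), RBBP4 (0.28 ± 0.05) and SUDS3 (0.25 ± 0.08) rose and BRMS1 fell (−0.24 ± 0.08), 4 of 15 in all (median 0.17). The share of all genes called there was 33.9%. The number of SIN3 genes called higher with siSUV39H1 ranged from 2 to 10 over the alternative settings. Set against DMSO in place of siNC, RBBP4 was not called (0.07 ± 0.05, edgeR adjusted p = 0.311). SIN3A (0.27 ± 0.07) and SUDS3 (0.44 ± 0.08) were again higher and BRMS1 again lower (−0.48 ± 0.08).

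Of 18 cofactors through which MYC activates genes, 8 rose and 6 fell with chaetocin (median 0.19), beside 41.1% and 38.4% of all genes. SMARCB1 of the SWI/SNF remodeller (−0.87 ± 0.07), the MYC binding protein gene MYCBP (−0.87 ± 0.07) and the helicase gene RUVBL1 (−0.72 ± 0.07) fell, and ZBTB17, which encodes the partner MIZ1, rose (0.83 ± 0.08). With siSUV39H1, 3 cofactors rose and 5 fell (median 0.05), beside 15.3% and 18.6% of all genes. Over the alternative settings 1 to 5 cofactors were higher and 2 to 5 lower, with a median of −0.01 to 0.15. WDR5, which anchors MYC on chromatin, fell (−0.67 ± 0.07, edgeR adjusted p = 2.93e-06), as did MYCBP (−0.40 ± 0.07) and the acetyltransferase gene KAT5 (−0.27 ± 0.07), while CREBBP, which encodes the acetyltransferase CBP, rose (0.45 ± 0.08). Set against DMSO in place of siNC, KAT5 was not called (−0.14 ± 0.07, edgeR adjusted p = 0.0962). MYCBP (−0.34 ± 0.07) was again lower and CREBBP (0.34 ± 0.08) again higher.

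Of 17 regulators of MYC protein turnover, 7 rose and 5 fell with chaetocin (median −0.02), and 1 rose and 5 fell with siSUV39H1 (median 0.05). Over the alternative settings 0 to 4 were higher and 3 to 5 lower with siSUV39H1, and both medians changed sign (−0.06 to 0.15 with chaetocin and −0.03 to 0.10 with siSUV39H1). Among all genes 41.1% rose and 38.4% fell with chaetocin, and 15.3% rose and 18.6% fell with siSUV39H1. The kinase gene PLK1 fell in both comparisons (−1.56 ± 0.09 and −0.88 ± 0.09). SET, which encodes an inhibitor of the phosphatase PP2A, fell with chaetocin (−0.67 ± 0.07), and the deubiquitinase gene USP28 rose (1.17 ± 0.10). With siSUV39H1, AURKA, whose kinase shields MYCN protein from degradation, fell (−0.58 ± 0.10, edgeR adjusted p = 0.0003), as did BTRC (−0.66 ± 0.10), and GSK3B, whose kinase marks MYC for degradation, rose (0.29 ± 0.08). With chaetocin AURKA fell too (−0.65 ± 0.10), while GSK3B (0.67 ± 0.08) and BTRC (0.45 ± 0.10) rose. Set against DMSO in place of siNC, siSUV39H1 again lowered AURKA (−0.78 ± 0.10) and raised GSK3B (0.37 ± 0.08). BTRC was not called there (−0.18 ± 0.10, edgeR adjusted p = 0.16). Protein levels were not measured.

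The genes most like a member over the 12 libraries were found by the root mean square difference between centred log2(CPM + 0.5) profiles, among the 11172 tested genes whose mean reached 5 CPM. The libraries share the 4 group means, so this describes a common pattern over 4 conditions. Nearest to MYC were THBS1 (0.113 on the log2 scale), AAAS (0.114), STRA6 (0.135), OLFML2B (0.136) and TMEM119 (0.137). THBS1, listed above among genes repressed by MYC, was at 517 ± 51.7 CPM with DMSO, 90.9 ± 8.64 with chaetocin, 397 ± 19.9 with siNC and 341 ± 15.8 with siSUV39H1. Nearest to MXD4 were PCBP4 (0.0564), MAGED2 (0.0673) and RND2 (0.0681), to MXI1 LEPROTL1 (0.0633), SKP2 (0.0803) and KCNK2 (0.082), and to MXD1 CLTC (0.081), NFX1 (0.0816) and AP1G1 (0.0925). Among the members themselves, MAX and MNT were the closest pair (0.1445), followed by MXD3 and MXD4 (0.217).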

How the data were processed

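The authors deposited, per gene and library, RSEM expected counts, TPM and FPKM values, per the file headers. Tools listed in the submitters' processing notes, without roles, are RSEM 1.3.1, Bowtie2 and DESeq2 1.4.5, with the build hg38. Neither annotation nor strand setting is given there. The authors' deposited FPKM values were used only to read back effective transcript lengths, and the deposited TPM values to compare levels between genes and in 2 alternatives. Library totals of 18004632 to 19976995 counts set the counting precision, and replicate pairs differed by 3.36 to 17.88 times the counting variance.

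Expected counts were rounded, filtered by group (filterByExpr), TMM-scaled and modelled in edgeR 4.0.16 (quasi-likelihood, R 4.3.3), with all 12 libraries in 1 fit of 4 group means and 8 residual degrees of freedom. The biological coefficient of variation was 8.87%. P-values were adjusted by Benjamini-Hochberg over 15051 genes, with a call at under 0.05. The standard error is the log2 change divided by the root of F. Ratios of few counts have exact conditional 95% intervals, which cover counting error only. Alternatives included limma 3.58.1 on log2(TPM + 1) and log2(TPM + 0.1), and DESeq2 1.42.0.

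The members and lists were chosen with earlier results of these data known. Besides members, the text names from each list the 4 called genes with the smallest p per main comparison, and the nearest profiles, apart from a few not reported here. Genes sharing exons with MXD3 and MLX were named for that overlap. Marker lists are given as sums with the genes at 0, with counts for the adrenergic list and single genes for the mesenchymal list.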

Additional observations from a re-analysis of the deposited data

How the results depend on the processing

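Each comparison was recomputed under 22 alternatives (21 for the difference of effects, which the 6 libraries of 1 comparison cannot give). No called member changed direction, and of 1090 member values 21 lost and 15 gained a call. Members called numbered 9 to 10 with chaetocin, 4 to 5 with siSUV39H1 against siNC, 4 to 6 with siNC against DMSO, 6 to 9 with siSUV39H1 against DMSO and 7 to 8 for the difference. The signs of uncalled MXD3, MXD4 and MXI1 differences between siSUV39H1 and siNC depended on the setting (−0.03 to 0.19, −0.12 to 0.04 and −0.02 to 0.14), as did those of MNT between siNC and DMSO (−0.07 to 0.03) and of MXD1 in the difference (−0.20 to 0.07). Library totals without composition scaling moved the median log2 change of all genes with chaetocin from 0.043 to 0.193. Other settings moved it too. It was 0.122 with upper-quartile scaling and 0.204 without the low-count filter, which keeps more genes. With limma it was 0.155 on log2(TPM + 1) and 0.191 on log2(TPM + 0.1). The cause of these shifts was not tested.

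With the replicate number as a block, 9, 5, 5, 8 and 7 members were called in the 5 comparisons, as without it. Same-numbered libraries did not deviate together (correlations of −0.269 to 0.16, with the own number best in 2 of 12), so the numbers were not taken as pairs. Depth limits MYCN and MYCL, whose counts were below 60 in most libraries.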

Other observations

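The deposited FPKM values give back the effective transcript length that RSEM assigned to each gene, which moves when the mix of isoforms or the fragment lengths move. For MXD4 it was 3822 bases in every group. For MXD3 it was 1078, 1093 and 1109 bases with DMSO and 1388, 1267 and 1129 with chaetocin, so every chaetocin library lay above every DMSO library. For siNC it was 1161, 1228 and 1109 bases and for siSUV39H1 1149, 1102 and 1158, which overlapped. The MXD3 lengths rest on fractional counts, since its exons overlap those of RAB24 and PRELID1, and the part of that overlap in them was not tested. For MNT the group means lay between 4599 and 4860 bases, and the DMSO range overlapped the chaetocin range.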
